A study of Homo sapiens with 24 samples.

Results

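RNA of 8 genes of the FOS, JUN and ATF3 group was measured by sequencing in HaCaT cells, human skin keratinocytes that are immortal but not malignant. The genes are FOS, FOSB, FOSL1, FOSL2, JUN, JUNB, JUND and ATF3, and each was taken as the row of the expression table whose gene ID carries that symbol, which gave 8 of the 58381 gene IDs. Per the labels, 3 clonal lines were transduced with an empty vector and 3 with hsa-miR-186, and cells of each line were grown with 0 or 100 nM iAs, inorganic arsenic. RNA was taken at weeks 12 and 29, with passages matched between treated and untreated cells, so that 8 groups of 3 libraries (n = 3) make up the 24 libraries. All groups are one cell line carrying a construct, vector and miR-186 were put into different clones, and no label says which clone a replicate number stands for.

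The same clones recur at both doses and both weeks, so libraries of different groups are not independent, and p-values measure only the spread between these samples. Levels are FPKM, fragments scaled to transcript length and to the library's total, so levels of different genes can be roughly set side by side. The levels themselves carry no correction for GC content. A change is a difference of log2(FPKM + 0.5), with ± giving its standard error. A change was called where limma's adjusted p, over the 14228 genes that averaged 0.5 FPKM or more, was under 0.05. All 8 genes passed that filter.

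FOS and JUN proteins pair through leucine zippers to form AP-1, a transcription factor that binds a short palindromic DNA element. JUN proteins can pair with one another, whereas FOS proteins bind DNA stably only as partners of a JUN protein. Many of these genes are immediate early genes, whose RNA is made within minutes of serum, growth factor or stress signals and is short-lived. ATF3 belongs to the same basic leucine zipper class, pairs with JUN proteins or itself and is induced by many stresses. In the epidermis AP-1 takes part in proliferation, differentiation, wound repair and inflammation.

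Promoter sequence is shown because FOS and JUN are textbook targets of AP-1 and of factors that bind the cyclic AMP response element. Windows from 250 bases before to 50 bases after the listed transcription start were at hand for 7 of the 8 genes (RefSeq, GRCh38.p14). ATF3 had 2 listed starts, and FOSL1 had no window. Both strands were searched for the AP-1 element TGACTCA, the cyclic AMP response element TGACGTCA, its AP-1-like variant TGACATCA, the core TGACG (which TGACGTCA contains), the TATA motif TATAAA and the CArG box bound by serum response factor. One stretch per gene is given here, 5′ to 3′ on the gene's strand, chosen as the longest of the AP-1 and cyclic AMP response motifs before the start and then the nearest to it, with TATAAA and the CArG box not considered. Capitals mark the motif.

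FOS: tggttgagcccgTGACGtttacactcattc

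FOSB: gcaaggggcgggTGACGtaagcaggggggc

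FOSL2: ggagtctggggtTGACGtgagtgaatccac

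JUN: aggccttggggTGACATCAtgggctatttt

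JUNB: gcttcctgacagTGACGcgagccgcctcct

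JUND: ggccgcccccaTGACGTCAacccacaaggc

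ATF3: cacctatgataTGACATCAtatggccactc

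The FOS stretch lies at chr14:75278752-75278781 (plus strand) and its motif begins 64 bases before the start. The FOSB stretch lies at chr19:45467924-45467953 (plus strand), with the motif 60 bases before the start, and the FOSL2 stretch at chr2:28392780-28392809 (plus strand), 66 bases before. The JUN stretch lies at chr1:58784096-58784125 (minus strand), 67 bases before the start, and the ATF3 stretch at chr1:212565273-212565302 (plus strand), 123 bases before. JUN and ATF3 thus carry the same 8 bases, which are found in 2.61% of the 35116 windows of all genes. The JUNB stretch lies at chr19:12791337-12791366 (plus strand), 137 bases before the start, and the JUND stretch at chr19:18281804-18281833 (minus strand), 200 bases before. JUND alone among the 7 has the full TGACGTCA, which 1.85% of all windows hold, while the core TGACG is common and stands in 24.6%. TATAAA, held by 11.5% of windows, begins 33, 30 and 31 bases before the start in FOS, FOSB and JUNB. It also stands at position -230 from the second listed start of ATF3. That window lies inside the annotated gene, and whether transcription starts there was not checked. TGACTCA, held by 4.95%, was found only in FOSL2, where it begins 4 bases after the start. The CArG box, held by 1.29%, was in none of the 8 windows. These end 250 bases before the start, so elements farther upstream were not searched for and may be present. GENCODE 29 begins FOS, FOSL2 and JUN upstream of the RefSeq start, so their stretches lie wholly or partly within the annotated gene. It also begins ATF3 upstream of the first listed start, but the ATF3 stretch lies before the annotated gene. These matches are letters in a window and do not show that a factor binds there.

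Library quality and cell identity were checked first. The sum of FPKM per library ran from 712797 to 905683, and 13803 to 14588 genes reached 0.5 FPKM. All 9 keratinocyte markers checked had a median of at least 1 FPKM, with sums of 2735 to 6145 FPKM at week 12 and 1514 to 4441 FPKM at week 29. The summed levels of other cell types were far lower, at 1.75 to 95.6 FPKM for 7 fibroblast markers, 2.94 to 11.2 FPKM for 5 melanocyte markers, 4.04 to 20.9 FPKM for 4 endothelial markers and 0.240 to 1.05 FPKM for 5 immune markers. The highest medians among the markers of other cell types were 11.6 FPKM for CDH5 (endothelial) and 5.58 FPKM for MITF (melanocyte). TYR, another melanocyte marker, was listed at 0 in every library.

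One library, replicate 2 of the miR-186 clones at 0 nM and week 29, stood apart from its group in these genes. FOS there was 4.12 times the mean of the group's other libraries, FOSB 5.50 times, JUNB 3.09 times, ATF3 2.35 times and JUN 1.86 times. FOSL1, FOSL2 and JUND were lower than in the others, at 0.661, 0.524 and 0.652 times. The immediate early genes EGR1 and IER2 were 5.32 and 2.61 times as high, and this library had the largest FPKM sum. Some of its summed cell markers also differed from replicates 1 and 3 of its group. The fibroblast sum was 95.6 FPKM against 3.94 and 6.84, the highest of all libraries. The endothelial sum was 4.04 FPKM against 18.7 and 18.5, the lowest of all libraries. The keratinocyte sum was 1633 FPKM against 2379 and 1996. The part of these markers in the results was not tested. Values without this library are given beside the results on its group that are called or change direction.

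FOS and ATF3 stood among the most abundant transcripts of the cells, with means over the 24 libraries of 393 and 399 FPKM, above 98.5% of the genes tested in each case. FOSB followed with 71.5 FPKM, and FOSL2, FOSL1 and JUN lay close together at 37.7, 34.7 and 33.1 FPKM. JUND and JUNB were the least abundant, with 10.1 and 5.73 FPKM.

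FOS, the founding partner of JUN in AP-1, is gene ENSG00000170345 (GRCh38, GENCODE 29, chromosome 14, 75278774 to 75282230, plus strand). In vector clones at week 12 its FPKM in replicates 1, 2 and 3 were 608, 822 and 525 at 0 nM and 722, 805 and 482 at 100 nM. In miR-186 clones at week 12 they were 536, 443 and 379 at 0 nM and 435, 473 and 324 at 100 nM. At week 29 vector clones had 195, 359.7 and 189.6 at 0 nM and 324, 434 and 339 at 100 nM, and miR-186 clones had 100.3, 431 and 109 at 0 nM and 159, 119 and 123 at 100 nM. Week 29 was lower in most libraries, with 8 of 12 below every library of week 12. When the 8 groups are ordered by mean, from vector at 100 nM and week 12 down to miR-186 at 100 nM and week 29 (5.02 times apart), each of the 7 neighbouring pairs overlapped.

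FOSB, a FOS relative induced together with it, is ENSG00000125740 (chromosome 19, 45467995 to 45475179, plus strand) and had the widest range. At week 12 its FPKM were 72.5, 115 and 61.4 in vector clones at 0 nM and 103, 127 and 68.7 at 100 nM, and 222, 183 and 164 in miR-186 clones at 0 nM and 118, 184 and 111 at 100 nM. At week 29 they were 7.62, 16.8 and 7.10 in vector clones at 0 nM and 13.8, 31.3 and 10.8 at 100 nM, and 6.33, 51.0 and 12.2 in miR-186 clones at 0 nM and 9.61, 10.0 and 8.70 at 100 nM. All 12 libraries of week 29 lay below all 12 of week 12. The highest group mean was 20.1 times the lowest, and the gap between weeks, from vector at 0 nM and week 12 to miR-186 at 0 nM and week 29, was the one place where neighbouring groups in the order did not overlap.

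FOSL1, or FRA-1, a FOS relative tied to migration and wound edges in epithelia, is ENSG00000175592 (chromosome 11, 65892049 to 65900573, minus strand). At week 12 its FPKM were 34.2, 52.4 and 32.7 in vector clones at 0 nM and 39.3, 43.8 and 36.3 at 100 nM, and 67.5, 64.3 and 43.8 in miR-186 clones at 0 nM and 40.4, 53.7 and 41.1 at 100 nM. At week 29 they were 19.6, 14.4 and 16.1 in vector clones at 0 nM and 26.2, 22.7 and 14.4 at 100 nM, and 24.5, 16.7 and 25.9 in miR-186 clones at 0 nM and 25.4, 33.5 and 43.7 at 100 nM. Of the 12 libraries of week 29, 10 lay below every library of week 12, and the others were replicates 2 and 3 of the miR-186 clones at 100 nM. FOSL2, or FRA-2, is ENSG00000075426 (chromosome 2, 28392448 to 28417312, plus strand) and varied least, with 36.3, 43.9 and 49.2 FPKM as lowest, median and highest at week 12 and 20.9, 32.8 and 41.8 FPKM at week 29. Its highest and lowest group means were 1.57 times apart.

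JUN, the partner that AP-1 is usually built on, is ENSG00000177606 (chromosome 1, 58780788 to 58784327, minus strand). At week 12 its FPKM were 43.3, 44.4 and 41.0 in vector clones at 0 nM and 54.5, 53.0 and 42.4 at 100 nM, and 49.9, 40.7 and 36.0 in miR-186 clones at 0 nM and 48.5, 58.9 and 49.1 at 100 nM. At week 29 they were 14.2, 21.5 and 12.4 in vector clones at 0 nM and 22.8, 24.1 and 18.2 at 100 nM, and 17.5, 32.4 and 17.3 in miR-186 clones at 0 nM and 17.8, 17.3 and 16.2 at 100 nM. As for FOSB, all 12 libraries of week 29 lay below all 12 of week 12. The share of all genes whose weeks separate in this way was not counted. Within a week the groups of JUN lay close together, and 5 of its 7 neighbouring pairs in the order of means overlapped.

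JUNB, which can restrain JUN and limits keratinocyte inflammation, is ENSG00000171223 (chromosome 19, 12791496 to 12793315, plus strand). Its exons share 259 bases with HOOK2 on the other strand, and since the strand setting of the counting is not given in the sources used here, its values are uncertain. At week 12 its FPKM were 5.35, 5.58 and 3.40 in vector clones at 0 nM and 6.09, 9.36 and 9.97 at 100 nM, and 14.1, 20.1 and 3.89 in miR-186 clones at 0 nM and 3.97, 8.89 and 4.81 at 100 nM. At week 29 they were 5.98, 4.28 and 2.03 in vector clones at 0 nM and 8.55, 8.24 and 2.15 at 100 nM, and 1.32, 3.997 and 1.27 in miR-186 clones at 0 nM and 0.910, 1.70 and 1.74 at 100 nM. Replicates of one group differed several-fold, and each of its 7 neighbouring pairs overlapped.

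JUND, the JUN relative found at steady levels in many resting cells, is ENSG00000130522 (chromosome 19, 18279760 to 18281622, minus strand). It ranged from 8.19 through a median of 12.1 to 16.9 FPKM at week 12 and from 5.17 through 8.19 to 9.50 FPKM at week 29, and all 7 neighbouring pairs of groups overlapped. JUND has the highest GC content of the 8 genes, 69.7%, and ATF3 the lowest, 46.7%.

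ATF3 is ENSG00000162772 (chromosome 1, 212565334 to 212620777, plus strand). At week 12 its FPKM were 485, 858 and 429.6 in vector clones at 0 nM and 455, 429 and 279 at 100 nM, and 654, 869 and 871 in miR-186 clones at 0 nM and 661, 748 and 517 at 100 nM. At week 29 they were 88.0, 113 and 85.9 in vector clones at 0 nM and 147, 162 and 184 at 100 nM, and 174, 471 and 227 in miR-186 clones at 0 nM and 277, 226 and 163 at 100 nM. Of the 12 libraries of week 29, 11 lay below all of week 12, and replicate 2 of the miR-186 clones at 0 nM was the exception. The highest group mean was 8.36 times the lowest, and vector clones at 0 nM and week 29 lay below every other group without overlap.

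**Figure D1:**
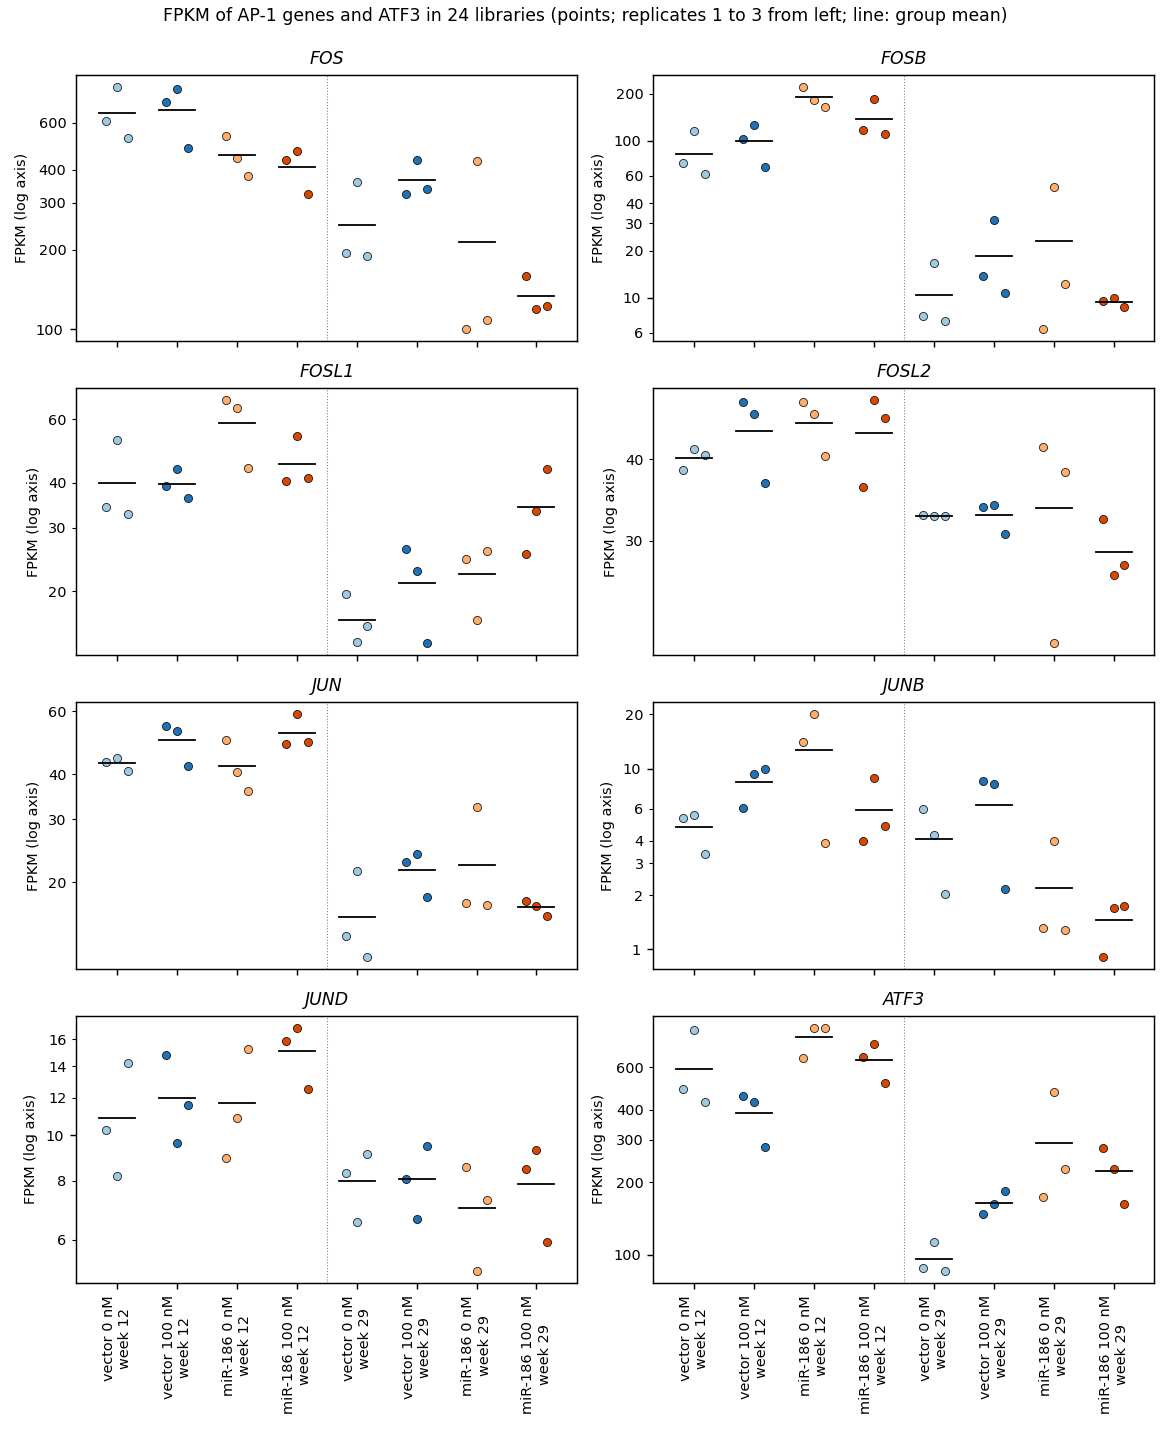
FPKM of the 8 genes on log axes, 1 panel per gene, in each of the 24 libraries (points, replicates 1 to 3 from left in each group, with a line at the group mean). FOSB and JUN show 12 points of week 29 below all points of week 12, and replicate 2 of the miR-186 clones at 0 nM and week 29 lies above its group in FOS, FOSB, JUN, JUNB and ATF3.

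The comparison of week 29 with week 12 asks how these genes stood after the longer culture. All 8 were called lower at week 29 on average over constructs and doses, where 14.1% of the genes tested were called lower. FOSB fell by 3.19 ± 0.26 on the log2 scale, a 9.10-fold difference (adjusted p = 8.6e-08), and held the third largest fall among the 14228 genes tested. ATF3 fell by 1.73 ± 0.16 (3.31-fold, adjusted p = 2.8e-07), FOS by 1.33 ± 0.19 (2.51-fold, adjusted p = 0.000136) and JUN by 1.29 ± 0.11 (2.44-fold, adjusted p = 1.1e-07). These 4 genes include the most abundant FOS, the most abundant JUN and the stress partner ATF3.

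The other members fell less. JUNB fell by 1.17 ± 0.27 (adjusted p = 0.00402), FOSL1 by 0.98 ± 0.12 (adjusted p = 2.9e-05), JUND by 0.63 ± 0.12 (adjusted p = 0.00124) and FOSL2 by 0.44 ± 0.09 (adjusted p = 0.00247). The median change of the 8 was -1.23, against 0.02 over all genes tested. Without any one of the 24 libraries all 8 were still called, and without the library that stood apart FOSB stood at -3.39 and ATF3 at -1.83.

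The week average is less firm for JUND than for the others. A correction for GC content left JUND at -0.09 (adjusted p = 0.817) and JUNB at -0.75 (adjusted p = 0.00995), with the other 7 genes, JUNB included, still called lower. The slope of expression on GC content, in log2 per 10 percentage points, ran from -0.20 to 0.43 at week 12 and from -0.37 to 0.26 at week 29, and its part in the changes of the GC-rich genes was not tested beyond this correction. Week and the day of RNA harvest cannot be told apart in this design, and in bulk RNA fewer cells expressing a gene and less of its RNA per cell cannot be told apart. The summed keratinocyte markers, given above, were also lower in range at week 29, and their part in the result was not tested.

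Within the 4 strata of construct and dose the same direction was seen throughout, with all 8 genes below 0 in all 4 comparisons. Under the GC correction 3 of these 32 values lay above 0, JUND in vector clones at 100 nM (0.02) and in miR-186 clones at 0 nM (0.23) and FOSL1 in miR-186 clones at 100 nM (0.07). Week 29 lay below week 12 without overlap for 6 of the 8 genes in vector clones at 0 nM, where this held for 10.3% of all genes tested, and for 5 in miR-186 clones at 0 nM, where it held for 14.2%. In vector clones at 0 nM 4 genes were called lower, where 0.822% of genes were. These were ATF3 at -2.56 (adjusted p = 0.00014), FOSB at -2.98 (adjusted p = 0.00463), JUN at -1.43 (adjusted p = 0.00115) and FOSL1 at -1.21 (adjusted p = 0.0191). FOSL1 lost its call without vector 0 nM week 12 replicate 2 (adjusted p = 0.156), week 29 replicate 2 (adjusted p = 0.0856) or week 29 replicate 3 (adjusted p = 0.0865). With the replicate block, which the pairing check allows here, FOS was called as well (-1.43, adjusted p = 0.0380 against 0.104 without it).

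In vector clones at 100 nM only JUN was called lower, at -1.19 (adjusted p = 0.0181), where 0.162% of genes were. For 7 of the 8 genes, all but JUNB, week 29 lay below week 12 without overlap, which held for 8% of all genes. FOSB stood at -2.49 (adjusted p = 0.0518), ATF3 at -1.21 (adjusted p = 0.120), FOSL1 at -0.94 (adjusted p = 0.134) and FOS at -0.85 (adjusted p = 0.326). The JUN call was lost without replicate 1 or 2 of week 12 (adjusted p = 0.142 and 0.153) or replicate 1 or 3 of week 29 (adjusted p = 0.0780 and 0.164), and with the GC correction (-0.95, adjusted p = 0.0745). Leaving out replicate 3 of week 12 added FOSB (adjusted p = 0.0265) and ATF3 (adjusted p = 0.0475), and leaving out replicate 2 of week 29 added FOSB (adjusted p = 0.0247).

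In miR-186 clones at 0 nM 5 genes were called lower, where 1.33% of genes were. FOSB stood at -3.52 (adjusted p = 0.000891), JUNB at -2.17 (adjusted p = 0.0356), ATF3 at -1.58 (adjusted p = 0.0112), FOSL1 at -1.37 (adjusted p = 0.00590) and JUN at -0.95 (adjusted p = 0.0239). FOS missed the threshold at -1.41 (adjusted p = 0.0541), but without replicate 2 of week 29, the library that stood apart, it fell by 2.09 (adjusted p = 0.000407) and FOSB fell by 4.34 (adjusted p = 1.1e-05). Without that library JUNB stood at -2.61 (adjusted p = 0.0240), ATF3 at -1.99 (adjusted p = 0.000806), JUN at -1.24 (adjusted p = 0.00207) and FOSL1 at -1.18 (adjusted p = 0.0285). The GC correction left 4 of the 5 calls and ended that of JUN (-0.69, adjusted p = 0.0926). Leaving out replicate 3 of week 12 also brought FOS past the threshold (adjusted p = 0.0458). Each other library was needed for some of the calls: only FOSB and ATF3 were called without replicate 1 of week 12, and only FOSB and FOSL1 without replicate 2 of week 12 or replicate 1 or 3 of week 29, with JUN then at an adjusted p of 0.0795 to 0.146, JUNB at 0.117 to 0.175, ATF3 at up to 0.0684 and FOSL1 at up to 0.0518.

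In miR-186 clones at 100 nM 7 genes were called lower, where 5.07% of genes were, and FOSL1 was the one not called, at -0.41 (adjusted p = 0.256). FOSB stood at -3.76 (adjusted p = 0.000638), JUNB at -1.67 (adjusted p = 0.0489), FOS at -1.61 (adjusted p = 0.0171), JUN at -1.58 (adjusted p = 0.000634), ATF3 at -1.55 (adjusted p = 0.00885), JUND at -0.90 (adjusted p = 0.0261) and FOSL2 at -0.59 (adjusted p = 0.0470). For 7 of the 8 genes, all but FOSL1, week 29 lay below week 12 without overlap, which held for 14.9% of all genes. The GC correction ended the calls of JUNB (-0.97, adjusted p = 0.135), FOSL2 (-0.45, adjusted p = 0.147) and JUND (-0.02, adjusted p = 0.987). FOSB and JUN kept their calls without any one library, and 2 to 5 genes were called in the 6 such fits. Without replicate 2 of week 12 these 2 were the only ones, with FOS at an adjusted p of 0.106, ATF3 at 0.0735, FOSL2 at 0.219, JUNB at 0.242 and JUND at 0.145. The counts were 4 without replicate 1 of week 29 and 3 without replicate 3 of week 29, and JUNB was called in none of the 6.

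**Figure D2:**
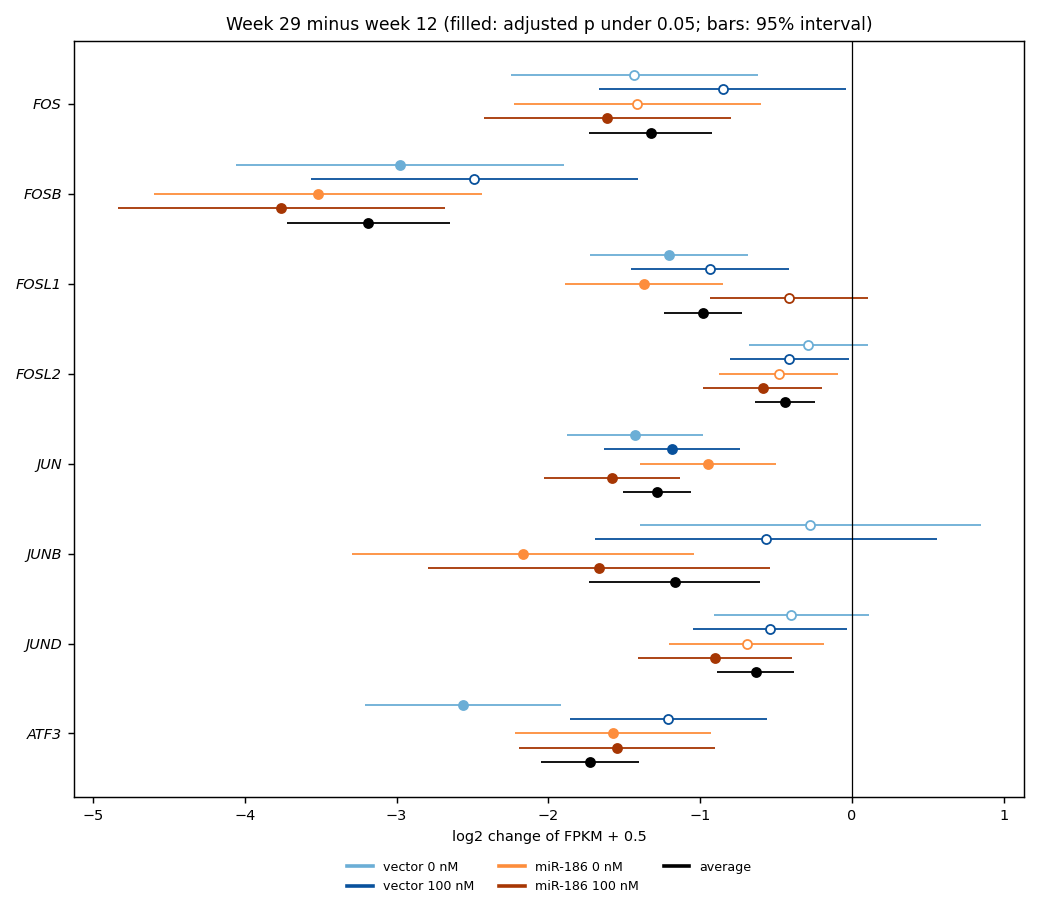
Log2 change from week 12 to week 29 for the 8 genes in each of the 4 strata and on average, with 95% intervals and filled points where the adjusted p was under 0.05. All points lie below 0, FOSB lies farthest left in every stratum, and the averages run from -3.19 for FOSB to -0.44 for FOSL2.

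The median make-up of the AP-1 pool also differed between weeks at the RNA level. The summed FPKM of the 4 FOS family genes had a median of 746 at week 12 (522 to 1031) and 250.2 at week 29 (173 to 522), and that of the 3 JUN family genes 67.4 (55.2 to 84.6) and 28.4 (23.6 to 41.6). FOS family RNA thus exceeded JUN family RNA in every library. The median ratio was 11.3 at week 12 (7.86 to 17.7) and 9.53 at week 29 (6.32 to 13.4). These FPKM were not corrected for GC content, which is 69.7% for JUND, 64.9% for JUNB and 52.6% for FOS. Its part in the ratio was not tested. FOSB made up a median of 15.6% of the FOS family at week 12 (9.30% to 26.2%) and 4.10% at week 29 (2.74% to 9.81%). FOSL1 and FOSL2 together made up 11.9% (8.86% to 16.7%) and 20.3% (7.24% to 38.4%). At week 29 their joint share was 10.9% to 20.6% in vector and 7.24% to 38.4% in miR-186 libraries. FOS itself stayed the main family member in all libraries, at 58.0% to 85.8%. RNA shares say nothing of protein, and these shares are a description with no test.

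The constructs also differed in this make-up at week 12, a pattern noticed after the values were seen and likewise given without a test. FOS made up 77.3% to 80.7% of the FOS family in the 6 vector libraries and 60.1% to 69.1% in the 6 miR-186 libraries. FOSB made up 9.30% to 12.4% in vector and 18.7% to 26.2% in miR-186 libraries, and FOSL1 with FOSL2 8.86% to 11.7% and 12.2% to 16.7%. At week 29 FOS made up 76.4% to 85.8% in vector libraries and 58.0% to 70.2% in 5 of the 6 miR-186 libraries, the other being replicate 2 at 0 nM with 82.9%. Since each construct sat in its own clones, construct and clone cannot be told apart.

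**Figure D3:**
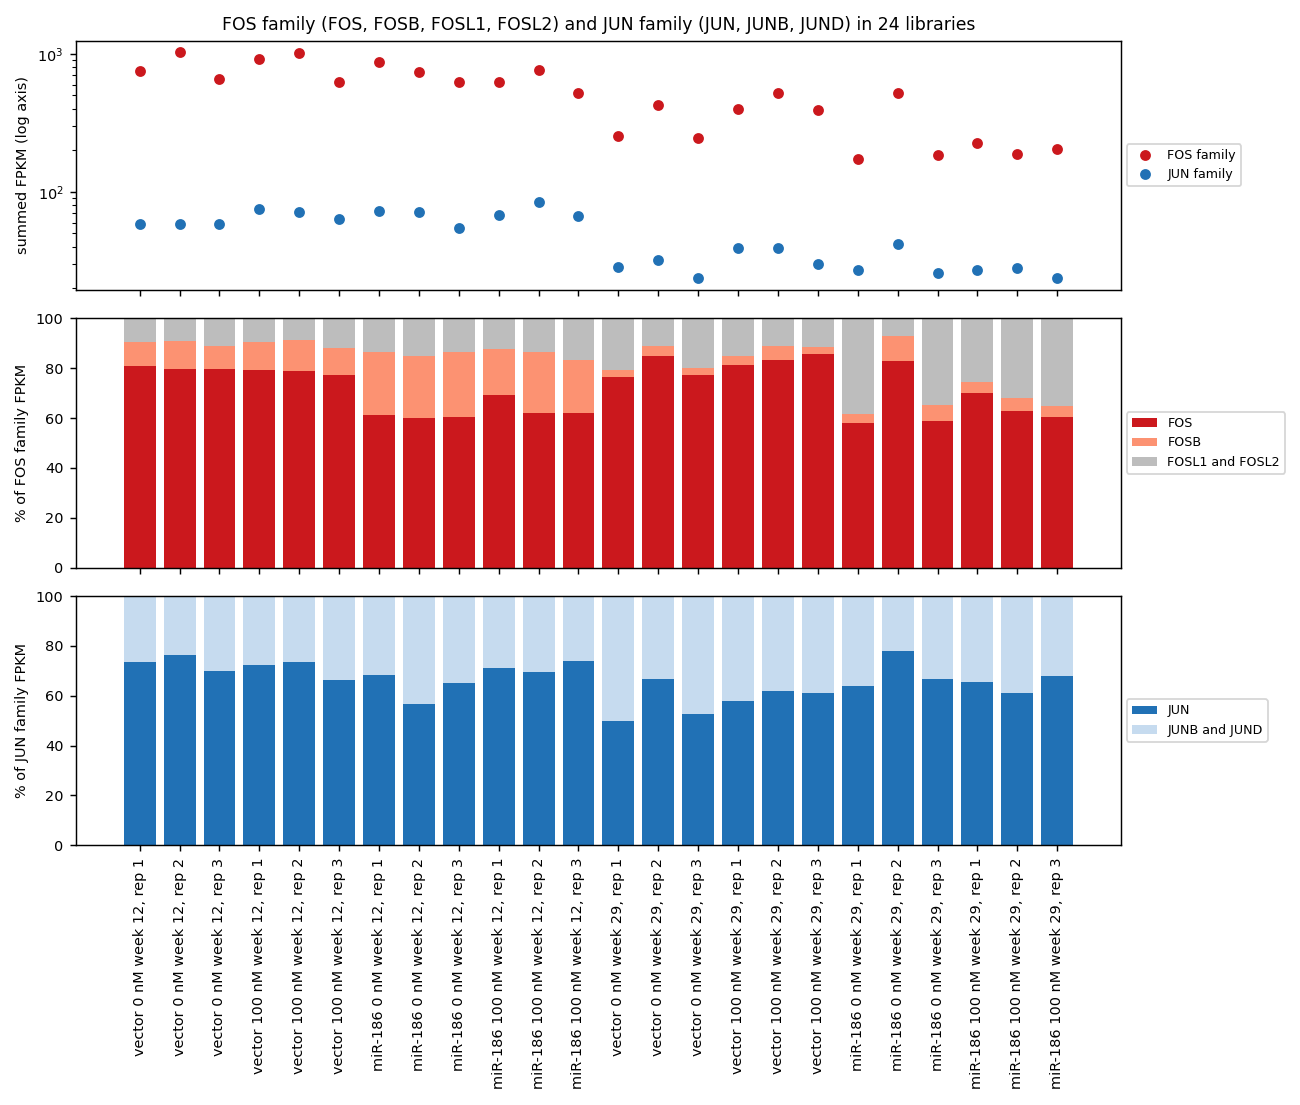
Summed FPKM of the FOS and JUN families on a log axis (top) and the percent of each family held by its members (middle and bottom) in the 24 libraries. The FOSB share is largest in miR-186 libraries of week 12, at 18.7% to 26.2%, and smallest at week 29, where its median is 4.10%.

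The comparison of 100 with 0 nM iAs asks whether long exposure at this dose moved the genes. None of the 8 was called in any of the 4 strata or on average. In vector clones at week 12 1.38% of all genes were called in either direction. The smallest adjusted p among the 8 was 0.222, for ATF3 at -0.57 ± 0.31. The GC slopes of these libraries were -0.13, -0.20 and -0.08 at 0 nM and 0.18, 0.23 and 0.43 at 100 nM. With the GC correction each of the 8 but ATF3 moved down, and none was called. JUND went from 0.15 to -0.89 (adjusted p = 0.438), FOSL1 from 0.03 to -0.57 (adjusted p = 0.267) and JUNB from 0.77 to -0.07 (adjusted p = 0.966). ATF3 went to -0.45 (adjusted p = 0.534). In vector clones at week 29, miR-186 clones at week 12 and miR-186 clones at week 29 the share called was 0% of all genes, with 555, 1558 and 312 genes at an unadjusted p under 0.05. limma without trend and robust moderation also called 0 of the 8 in each. On average over constructs and weeks 7.58% of genes were called.

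In vector clones at week 29 ATF3 stood at 0.78 (1.72-fold higher) and JUN at 0.45 (1.37-fold higher), and their 95% intervals, from 0.14 to 1.43 and from 0.005 to 0.90, lay above 0 while both adjusted p were 1. FOSL1 in miR-186 clones at week 29 stood at 0.59 (interval 0.08 to 1.11, adjusted p = 0.999), and at 0.40 ± 0.27 (adjusted p = 1) without the library that stood apart. FOS there stood at -0.34 with that library and at 0.34 ± 0.28 (adjusted p = 1) without it. The ATF3 libraries of vector clones at week 29, 88.0, 113 and 85.9 FPKM at 0 nM and 147, 162 and 184 at 100 nM, did not overlap, and 5.56% of all genes were likewise higher with iAs without overlap.

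The average effects of iAs had narrow intervals for some genes in the main fit, and these do not cover the choice of processing. The 95% interval of the log2 change ran from -0.22 to 0.17 for FOSL2, from -0.06 to 0.39 for JUN, from -0.12 to 0.40 for FOSL1 and from -0.08 to 0.43 for JUND. For ATF3 it ran from -0.42 to 0.23 and for FOS from -0.37 to 0.45. It was widest for FOSB, from -0.59 to 0.49, and JUNB, from -0.55 to 0.57. These limits do not show that iAs left the genes alone. Without the library that stood apart none of the 8 genes was called on average either, with the smallest adjusted p at 0.109 (JUN, 0.24). With the GC correction the average changes of FOS, FOSL1, JUN, JUNB and JUND turned below 0, and none was called.

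The comparison of miR-186 with vector clones asks whether the microRNA construct moved the genes. At 0 nM and week 29 ATF3 was called higher in miR-186 clones, at 291 ± 159 FPKM (SD, n = 3) against 95.5 ± 14.9 FPKM (SD, n = 3). The log2 change was 1.48 ± 0.31 (2.78-fold, adjusted p = 0.0147), where 1.76% of genes were called higher. The groups did not overlap, which held in this direction for 15.9% of all genes. The replicate block, allowed by the pairing check, gave an adjusted p of 0.00448. The call was lost without vector replicate 1 (1.42, adjusted p = 0.0689), without vector replicate 3 (1.41, adjusted p = 0.0512) and without miR-186 replicate 2, the library that stood apart (1.06, adjusted p = 0.0712). Without that last library FOS was called lower in miR-186 clones instead, at -1.18 (adjusted p = 0.0453).

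No other of the 8 genes was called between the constructs with all libraries and no correction. At 0 nM and week 12, where 3.44% of genes were called in either direction, FOSB stood at 1.23 ± 0.52 (adjusted p = 0.193), JUNB at 1.08 ± 0.54 (adjusted p = 0.268), FOSL1 at 0.56 ± 0.25 (adjusted p = 0.216) and ATF3 at 0.49 ± 0.31 (adjusted p = 0.386). At 100 nM and week 12, where 2.02% were called, ATF3 stood at 0.74 ± 0.31 (adjusted p = 0.266) and FOS at -0.69 ± 0.39 (adjusted p = 0.439), and neither overlapped, which held for 18.3% of all genes in either direction. At 100 nM and week 29, where 0.864% were called, FOS stood at -1.45 ± 0.39 (adjusted p = 0.0814), JUNB at -1.64 ± 0.54 (adjusted p = 0.152) and FOSL1 at 0.69 ± 0.25 (adjusted p = 0.191). With the GC correction FOSL1 was called higher in miR-186 clones (0.99, adjusted p = 0.0306). FOS, FOSB, JUN and JUNB of miR-186 clones there lay below vector clones without overlap, as did 6.8% of all genes, and leaving out vector replicate 3 brought JUNB past the threshold (-2.22, adjusted p = 0.0431). FOSL2 and JUND stayed within 0.33 of 0 on the log2 scale in all 4 comparisons.

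**Figure D4:**
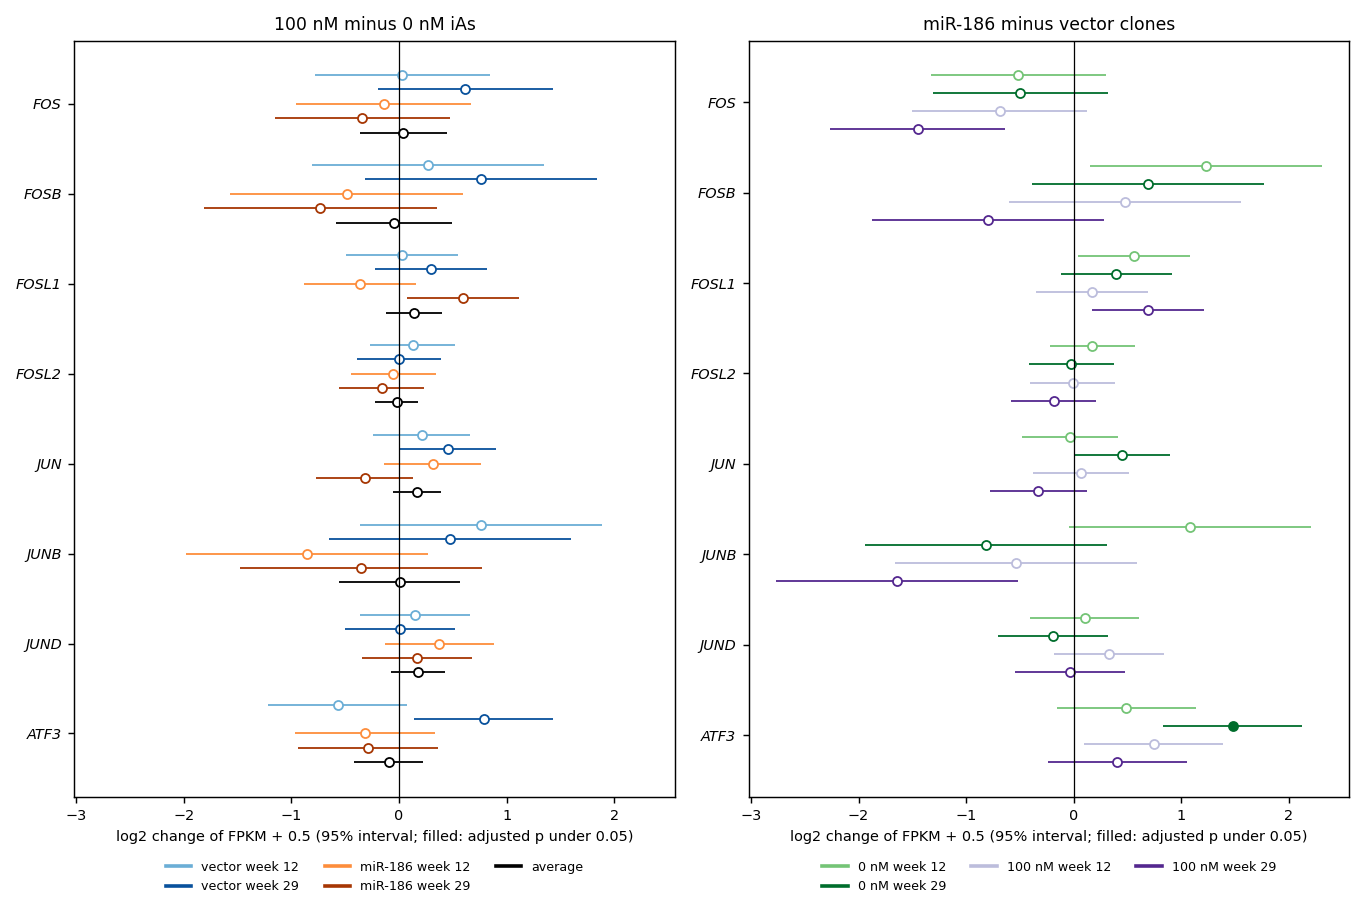
Log2 change between 100 and 0 nM iAs (left) and between miR-186 and vector clones (right) for the 8 genes, with 95% intervals and filled points where the adjusted p was under 0.05. ATF3 at 0 nM and week 29, at 1.48, is the only filled point.

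The 6 differences between effects, such as the iAs effect at week 29 minus that at week 12, gave no called change for any of the 8 genes or for any gene tested. Between 272 and 1910 genes per difference had an unadjusted p under 0.05. For JUNB the miR-186 effect at 0 nM at week 29 minus that at week 12 was -1.89 ± 0.76 (adjusted p = 0.341), and -2.33 ± 0.77 (adjusted p = 0.349) without the library that stood apart. For ATF3 in vector clones the iAs effect at week 29 exceeded that at week 12 by 1.35 ± 0.44 (adjusted p = 0.656). So the ATF3 effect of iAs was not shown to differ between weeks, nor the falls of the other genes between constructs or doses.

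Genes of the same pathway were described from 6 lists, which are read against the 16.3% of all genes called higher and the 14.1% called lower between weeks. Of 27 tested immediate early genes outside the group, 24 were called lower at week 29, 1 higher and 2 neither, with a median change of -1.53. KLF6, a zinc finger factor, fell from a median of 143 to 41.7 FPKM (-1.81 ± 0.08, adjusted p = 4.0e-12), and IER3, a survival factor, from 106 to 35.2 FPKM (-1.53 ± 0.09, adjusted p = 3.7e-10). RHOB, a small GTPase, fell from 23.5 to 8.47 FPKM (-1.32 ± 0.09) and ZFP36L1, which promotes decay of AU-rich RNA, from 108 to 46.9 FPKM (-1.12 ± 0.07). The exception was GADD45B at 0.56 (adjusted p = 0.018), named after its value was seen. The count of 24 lower held without any one library, and was 23 with the GC correction.

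Of 29 tested AP-1 target genes of keratinocytes 13 were called lower and 0 higher, with a median of -0.31. PTGS2, the inducible cyclooxygenase, fell from a median of 107 to 11.9 FPKM (-2.90 ± 0.33, adjusted p = 6.5e-06) and IL6, an inflammatory cytokine, from 79.1 to 18.3 FPKM (-2.22 ± 0.24, adjusted p = 3.4e-06). HBEGF, an EGF receptor ligand, fell from 126 to 37.6 FPKM (-1.61 ± 0.13, adjusted p = 9.9e-08). The other 16 did not pass the test. Leaving out single libraries gave 11 to 13 called lower and 0 to 1 higher. With the GC correction 11 were called lower and 0 higher. With that correction and without the library that stood apart, 10 were called lower and 1 higher, with a median of -0.18.

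Kinases and ternary complex factors upstream of AP-1 did not move as a group, with 5 of 24 called higher, 5 lower and a median of 0.01. SRF, the factor that binds the CArG box with ternary complex factors, fell by 0.59 ± 0.09 (adjusted p = 0.000294), and its partner ELK4 rose by 0.37 ± 0.09 (adjusted p = 0.00528). The kinases MAPK7 and MAP2K3 fell by 0.54 and 0.46. Left-out libraries moved the count called lower between 3 and 7, and that called higher between 3 and 6.

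Genes that restrain or degrade JUN and FOS proteins split as well, with 5 of 15 called higher, 4 lower and a median of -0.09. DUSP1, a phosphatase of stress kinases and itself an immediate early gene, fell from a median of 160.4 to 43.1 FPKM (-1.66 ± 0.15, adjusted p = 2.5e-07). DUSP10 fell by 1.03 ± 0.11, whereas ITCH, a ubiquitin ligase of JUN proteins, rose by 0.50 ± 0.07 and CSNK2A1 by 0.26 ± 0.06. Leaving out single libraries gave 3 to 5 called higher.

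Partners and related basic leucine zipper factors split too, with 6 of 21 called higher, 5 lower and a median of -0.02. MAFF fell by 0.81 ± 0.11 and CEBPA by 0.62 ± 0.12, while DDIT3, or CHOP, rose by 0.97 ± 0.10 (adjusted p = 1.8e-06). DDIT3 belongs also to the ATF4 and ATF3 stress response list, where 8 of 18 genes were called higher and 2 lower with a median of 0.47. DDIT4, an inhibitor of mTOR signalling, rose there from a median of 58.8 to 121 FPKM (1.12 ± 0.13, adjusted p = 7.5e-06). PPP1R15A, which restores translation after stress, fell from 151 to 61.0 FPKM (-1.36 ± 0.08, adjusted p = 1.6e-09) and GADD45A by 0.72 ± 0.09. ATF3 and this list thus went different ways on average, though single left-out libraries moved the count called higher between 6 and 12.

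**Figure D5:**
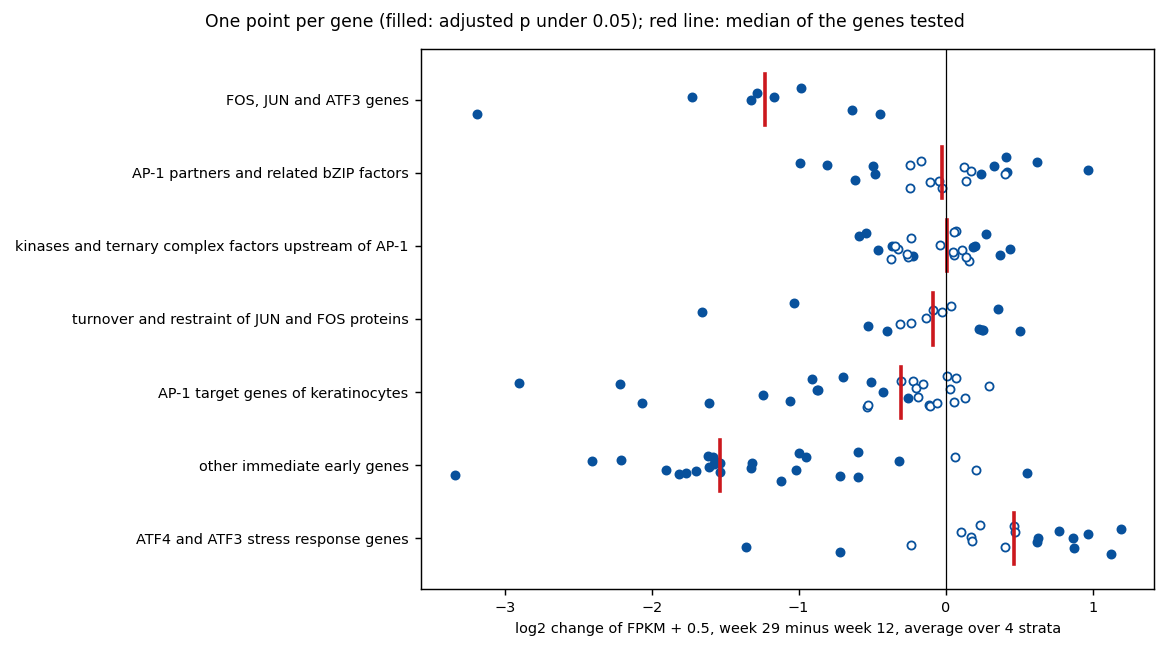
Average log2 change from week 12 to week 29 of the 8 genes and of each gene in 6 pathway lists (1 point per gene, filled where the adjusted p was under 0.05, red line at the median). The immediate early genes have a median of -1.53, near the -1.23 of the 8 genes, while the stress response genes have a median of 0.47.

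With iAs on average 2.90% of all genes were called higher and 4.67% lower. Kinases had 3 of 24 called higher, MAP2K7 at 0.44, MAPK7 at 0.46 and MAP2K2 at 0.33. The stress list had 2 of 18 called higher, PPP1R15A (0.35) and SESN2 (0.62), and the targets 1 of 29, TIMP1 (0.45). Of the 21 partners ATF5 (0.29) was called higher, and NFE2L2 (-0.25), the regulator of the oxidative stress response, was called lower. No gene of the 27 immediate early genes or the 15 of the turnover list was called. The adjusted p of the calls named here ran from 0.0262 (PPP1R15A) to 0.0475 (SESN2). These calls were not rerun with the GC correction or without single libraries.

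Across the 24 libraries the 8 genes varied together, and less so within a week. Their 28 pairs had Pearson correlations of log2 values from 0.24 to 0.95, all above 0, with a median of 0.63. Within week 12 the median was 0.16 (-0.51 to 0.90) and within week 29 it was -0.14 (-0.72 to 0.91). When each library was set against its group mean, the median was -0.03 (-0.62 to 0.92), with 13 of the 28 pairs above 0. Without the group of the library that stood apart it was 0.31 (-0.56 to 0.85), with 20 above 0. FOS and FOSB were the closest pair in both, at 0.92 and 0.85. Libraries share clones, and these correlations are descriptions.

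For each member the 3 genes outside the group with the most similar pattern over the 24 libraries were taken. FOS was most like TOB1 (r = 0.93), an antiproliferative gene, followed by IER2 (0.90) and EGR1 (0.89). The TOB1 relation was seen within week 12 (0.94) and within week 29 (0.90). IER2 stood at 0.43 within week 12 and 0.93 within week 29, and EGR1 at 0.33 and 0.91. FOSB was most like ATP5MC1P6 (0.97), a processed pseudogene inside SERPINB5 at 0.132 to 12.6 FPKM, then DUSP1 (0.96) and NR4A1 (0.96). Reads of a pseudogene can come from its parent gene, so that value is uncertain. JUN was most like TRIB1 (0.97), DUSP1 (0.95) and ATP5MC1P6 (0.94). Within week 12 these correlations were 0.51, 0.18 and 0.18, and within week 29 they were 0.92, 0.87 and 0.83.

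The remaining members had other neighbours. FOSL1 was most like CCDC85B (0.89), which lies 413 bases away on the other strand. PPP1R15A (0.86) was also among its 3, at 0.32 within week 12 and 0.71 within week 29. FOSL2 was most like the clock gene PER2 (0.89), MAFF (0.87) and the phosphatase gene DUSP4 (0.85). JUNB was most like ADIRF (0.91), HYAL2 (0.91) and OVOL1 (0.90), a regulator of epidermal differentiation, and ATF3 was most like KLF6 (0.93), CCN1 (0.92) and TRIB1 (0.92). JUND had the weakest likeness, with an antisense RNA gene inside IRF2BP2 (0.82), AMOTL2 (0.80) and TFAP2A (0.79), and its top relation was 0.38 within week 29.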

How the data were processed

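RNA of 24 HaCaT libraries was isolated with the mirVana kit and made into stranded poly(A) libraries, which were pooled and sequenced paired-end, per the labels' protocols. FPKM were made by the authors with STAR 2.6.0c, hg38 (GRCh38) and Cuffdiff 2.2.1, per the submitters' processing notes, and these deposited values were not rescaled. The annotation release, the strand setting and read depth are not given in the sources used here. Of 58381 gene IDs, 57740 had a symbol and 58202 were in GENCODE 29, which gave coordinates and GC content. No pair of libraries was identical.

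limma 3.58.1 (R 4.3.3) with trend and robust moderation was fitted to log2(FPKM + 0.5) of the 14228 genes averaging 0.5 FPKM or more, with 8 group means in 1 fit and no block. The pseudocount understates changes of low genes. Of 20 comparisons, 12 set 1 group against another, 2 were averages and 6 were differences of effects. p-values were adjusted by Benjamini-Hochberg within each, with a threshold of 0.05, and the scripts were tested on simulated data. Sequences and motifs came from RefSeq windows.

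Every member is named. For each, the 3 genes with the highest Pearson correlation among those with a mean of at least 1 FPKM are given, and of each list up to 4 genes with the smallest p in a comparison described. Some of the genes this takes are not reported here. The members and lists were chosen with earlier results of these data known.

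Same-numbered libraries were checked as pairs by the correlation of their deviations from group means, across genes. Every number exceeded 0.1 in 4 of the 12 comparisons, which are week in vector clones at 0 nM (0.17 to 0.52), week in miR-186 clones at 100 nM (0.34 to 0.41), iAs in vector clones at week 29 (0.46 to 0.62) and construct at 0 nM and week 29 (0.20 to 0.23). In those 4 the numbers were taken to pair libraries, which no label states. Between constructs it cannot mark a shared clone.

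The alternatives tried were pseudocounts of 0.1 and 1, no filter on low values, a stricter mean of 2 FPKM, median ratio scaling, rescaling to TPM, a GC correction (natural spline of 5 degrees of freedom, set by genes above 1.5 FPKM, 14208 genes or 99.9%), no trend and robust moderation, only the groups compared, a replicate block and each library left out.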

Additional observations from a re-analysis of the deposited data

How the results depend on the processing

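The 8 falls between weeks, averaged over constructs and doses, were called without any one library and under each alternative run, except JUND under the GC correction, alone, with the replicate block or without one library. JUND ran from -0.67 to -0.04 over the 12 settings and was called in 9. For averages, a fit on only the groups compared is the main fit and was not run. Counts of members called changed more in single strata. Between weeks in vector clones at 100 nM the count of 1 became 2 with a pseudocount of 1, with a mean of at least 2 FPKM and with TPM, 0 with the GC correction and with only the groups compared, 3 with the replicate block, with or without the GC correction, and 0 to 3 without single libraries. In miR-186 clones at 0 nM the count of 5 became 4 with the GC correction and 6 with the replicate block. It became 1 with only the groups compared and 2 to 6 without single libraries. In miR-186 clones at 100 nM the count of 7 became 4 with no filter, with the GC correction and with only the groups compared, and 2 to 5 without single libraries. Between constructs at 0 nM and week 29 the count of 1 became 0 with only the groups compared, 0 to 1 without single libraries, and 0 with the GC correction and without miR-186 replicate 2 together, an alternative chosen after seeing the data. At 100 nM and week 29 the count of 0 became 1 with the GC correction, 1 with the replicate block, 3 with both, and 0 to 1 without single libraries. A fit on only 2 groups estimates the spread from 6 libraries, and fewer libraries give less power. The cause of the other changes was not tested. Among results for single genes and lists, 1026 kept their direction and side of the threshold, 92 lost a call, 32 gained one and 0 reversed. Where the pairing check passed, the replicate block changed no other call of these 8 genes than FOS between weeks in vector clones at 0 nM, where 5 were called against 4. The check did not pass between weeks in vector clones at 100 nM or miR-186 clones at 0 nM, nor between constructs at 100 nM and week 29. The counts with the block given above for these comparisons therefore lack that backing. TPM moved the median over all genes from 0.06 to -0.05 between weeks in miR-186 clones at 0 nM, by -0.15 in the difference of iAs effects between constructs at week 12 and by -0.13 in that of construct effects between weeks at 0 nM. The other shifts under median ratio scaling, TPM and the GC correction were under 0.1. Read depth is unknown, so counting error is not given.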
